A study of Mus musculus with 12 samples.

Results

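Bipolar cells carry signals from photoreceptors to the inner retina, and 9 of their genes were followed here: Grm6, Trpm1, Gpr179, Gng13, Pcp2, Cabp5, Prkca, Vsx1 and Isl1. They were chosen by name as genes of bipolar cells and of the mGluR6 pathway, and all 9 were found among the 37991 genes of the deposited tables. ON bipolar cells receive glutamate from photoreceptors in the dark. The receptor mGluR6 then acts through a Go protein to keep the cation channel TRPM1 closed, and light, by lowering glutamate release, lets the channel open. Loss of mGluR6, TRPM1 or GPR179 is a known cause of congenital stationary night blindness.

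Retinas came from male mice aged 8 weeks, and polyadenylated RNA was read as paired ends in 12 libraries, 3 for each of 4 classes, with 6 to 8 retinas pooled in each library. The F0 classes were the inbred strains C57BL/6J and Cast/EiJ. F1 B6xCast had a C57BL/6J father and a Cast/EiJ mother, and F1 CastxB6 had the opposite parents. F0 libraries were run on 1 lane and F1 libraries on 2 lanes. No class carried a transgene or a treatment. Since whole retina was sequenced, fewer cells of a type and less RNA per cell cannot be told apart.

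Values are the authors' normalized count equivalents, which are estimated read numbers per gene, given in F1 for each allele separately. Levels that are compared between genes are in FPKM, which takes account of transcript length. A unique hit is a read pair with a match in 1 gene alone, and in F1 in 1 allele alone. They ranged from 8158534 to 12363291 per library, the lowest being in F0 Cast/EiJ. Differences are Cast/EiJ minus C57BL/6J on the scale of log2(count equivalents + 1), with standard errors (SE), and were tested with limma over all genes. A call is a Benjamini-Hochberg adjusted p under 0.05. Replicate 1 of F0 C57BL/6J, F0 Cast/EiJ and F1 B6xCast stood apart from its group. Its unique hits differed from those of the other replicates by a chi-square per gene of 7.18 to 12.5, against 1.68 to 3.20 in all other replicate pairs, where counting error alone would give 1.

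Markers of other cells also differed between the F0 strains. Summed FPKM of 7 cone markers was 530 to 589 in C57BL/6J and 402 to 433 in Cast/EiJ, that of 8 ganglion cell markers 329 to 365 and 245 to 265, and that of 6 horizontal cell markers 79.4 to 96.0 and 59.1 to 63.7. Pigment epithelium markers summed to 11.9 to 13.7 and 3.99 to 5.16, microglia markers to 6.85 to 7.57 and 3.08 to 3.86, and blood markers to 76.0 to 115 and 35.5 to 58.0, each higher in C57BL/6J without overlap. Taken singly, 48.0% of all genes tested did not overlap between the F0 strains in count equivalents. Of the pigment epithelium markers, Ttr did not overlap, whereas Rpe65 and Best1 did. Rod markers summed to 16713 to 16966 in C57BL/6J and 17819 to 18633 in Cast/EiJ, and amacrine markers to 285 to 327 and 331 to 348. Melanocyte markers were at 2.48 to 3.04 and 3.18 to 3.39. The strains overlapped for Mueller glia (1154 to 1388 and 1041 to 1200), vessel (19.3 to 27.8 and 27.5 to 36.1) and lens markers (0.442 to 10.3 and 4.10 to 11.6). The 9 bipolar genes themselves overlapped too, with sums of 466 to 556 and 480 to 562. These sums join opposite directions. Mean FPKM was higher in Cast/EiJ for Cabp5 (32.8 and 81.5) and Prkca (42.5 and 53.7), and lower for all the others. No marker was below 1 count equivalent in every library, and the part of these lists in the differences described here was not tested.

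Every gene of the set was expressed in all 12 libraries. Pcp2 and Gng13 had the highest levels, with means of 182 ± 16.5 and 111 ± 21.2 FPKM (SD, n = 12). Cabp5 at 61.0 ± 18.6, Trpm1 at 60.2 ± 5.51 and Prkca at 50.4 ± 7.69 followed. The SD spans all 4 classes. In F0 C57BL/6J Cabp5 was at 31.1 to 34.1 FPKM, below every Trpm1 and Prkca value of that strain. In F0 Cast/EiJ it was at 77.2 to 85.2, above every such value. Grm6 at 23.9 ± 3.46, Isl1 at 22.9 ± 2.74 and Gpr179 at 14.1 ± 2.80 were lower, and Vsx1 was lowest at 3.64 ± 0.478. The ranges over libraries of neighbours in this order overlapped, except that all Prkca values lay above all Grm6 values and all Gpr179 values above all Vsx1 values. Against the whole transcriptome the levels were high, since 99.5% of genes lay below Pcp2 and 74.9% below Vsx1.

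**Figure D1:**
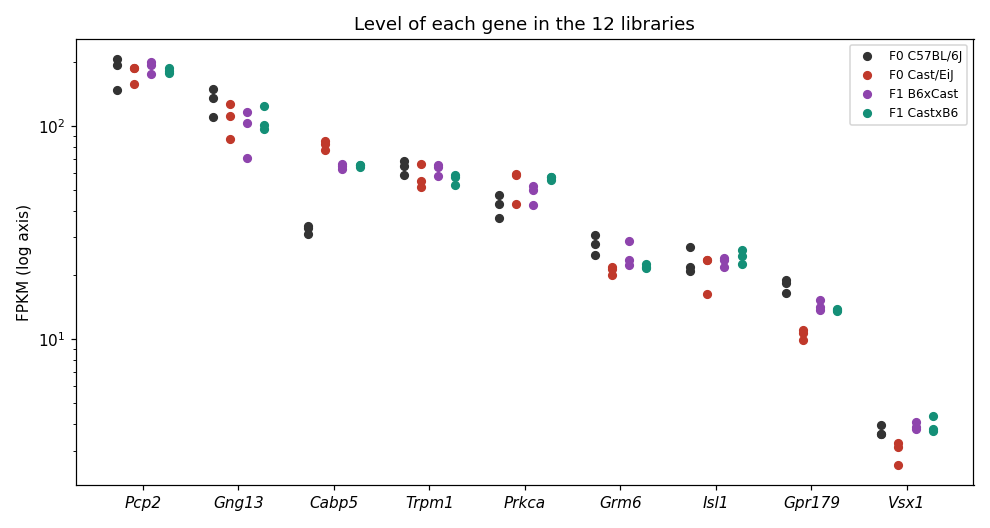
Level of the 9 genes in FPKM (log axis) in each of the 12 libraries, 1 point per library, with F1 points as the mean of both alleles. The genes run from Pcp2, at 182 FPKM on average, down to Vsx1 at 3.64, and Cabp5 is the gene whose strains lie farthest apart.

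The gene with the largest difference was Cabp5, which encodes a calcium-binding protein of rod bipolar and some cone bipolar cells. It lies on chromosome 7 from 13983481 to 13994236 on the plus strand (NCBI37). In F0 C57BL/6J retinas it had 979, 1090 and 1050 count equivalents, and in F0 Cast/EiJ 2720, 2500 and 2670. Every Cast/EiJ library was above every C57BL/6J library, at a ratio of means of 2.53. The difference was 1.34 ± 0.07 (SE), with an adjusted p of 1.6e-06 from limma.

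The gap was also present between the alleles of the hybrids. The C57BL/6J allele of Cabp5 had 1030 to 1130 count equivalents, median 1095, and the Cast/EiJ allele 2910 to 3050, median 2985, over 6 libraries. The alleles did not overlap and the Cast/EiJ allele was higher in 6 of 6 libraries, whichever parent had given it. The allelic difference was 1.46 ± 0.04 (limma adjusted p = 8.4e-15), a ratio of 2.74. Of 20281 allele-specific unique hits, 72.9% were on the Cast/EiJ allele (95% Wilson interval 72.3% to 73.5%, counting error only). The trans component, which is the F0 difference minus the allelic difference and so shares its libraries with both, was -0.12 ± 0.07 and was not called (limma adjusted p = 0.27). F1 libraries as a whole, with both alleles averaged, had 2025 ± 50.7 (F1 B6xCast) and 2043 ± 28.9 (F1 CastxB6) count equivalents (SD, n = 3), between the F0 strains.

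Promoter sequences are shown for Cabp5, the gene with the largest allelic difference, and for Trpm1 and Gpr179, which are lower from the Cast/EiJ allele. Each is the 250 bases before the annotated start in the C57BL/6J reference (RefSeq, GRCm38.p6), 5′ to 3′ on the strand of the gene. Capitals mark TAATCC or TAATCT on either strand, the cores bound by OTX2 and CRX, homeodomain factors of bipolar cells and photoreceptors. TAATCC is found in 6.25% and TAATCT in 7.31% of 32851 such promoters. These letters come from C57BL/6J only, and the Cast/EiJ sequence was not analysed here.
Cabp5, chr7:13397905-13398154, plus strand: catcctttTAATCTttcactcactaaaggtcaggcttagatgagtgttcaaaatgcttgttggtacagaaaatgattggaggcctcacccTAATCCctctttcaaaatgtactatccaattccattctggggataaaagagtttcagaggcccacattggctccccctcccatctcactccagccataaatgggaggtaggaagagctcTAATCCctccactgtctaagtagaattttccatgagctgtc
Trpm1, first of its annotated starts, chr7:64153585-64153834, plus strand: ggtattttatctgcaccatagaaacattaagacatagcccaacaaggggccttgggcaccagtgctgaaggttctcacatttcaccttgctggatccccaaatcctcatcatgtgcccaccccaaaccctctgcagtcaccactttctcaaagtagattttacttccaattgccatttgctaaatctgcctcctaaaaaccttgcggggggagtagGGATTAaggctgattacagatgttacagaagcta
Gpr179, chr11:97352357-97352606, minus strand: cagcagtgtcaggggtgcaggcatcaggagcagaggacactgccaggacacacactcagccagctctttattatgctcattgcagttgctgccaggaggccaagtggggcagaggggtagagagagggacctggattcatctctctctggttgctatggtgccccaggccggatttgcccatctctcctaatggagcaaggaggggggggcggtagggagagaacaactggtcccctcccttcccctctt
The Cabp5 window held 2 TAATCC and 1 TAATCT, which begin 160, 41 and 242 bases before the start, in that order. Trpm1 held 1 TAATCC on the opposite strand, 34 bases before the start, and the Gpr179 window held neither motif. All 9 genes had promoter entries, 14 in all counting other starts, and TAATCC was present in 3 entries, those of Cabp5, Trpm1 and Isl1. A match is a run of letters and not a shown binding site.

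Grm6 encodes mGluR6 itself, the glutamate receptor of ON bipolar dendrites, and lies on chromosome 11 from 50664187 to 50679710 on the plus strand. F0 C57BL/6J libraries had 1800, 1800 and 1550 count equivalents and F0 Cast/EiJ libraries 1420, 1500 and 1420. The Cast/EiJ libraries were all lower, and the difference was -0.24 ± 0.08 (limma adjusted p = 0.041). This call was lost when any F0 library other than F0 C57BL/6J replicate 3 was left out, with adjusted p between 0.069 and 0.14, with DESeq2 on unique hits (0.051) and without the filter on low values (0.14). On the deposited log expression the difference was -0.40 (adjusted p = 0.021).

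In F1 the Grm6 alleles went the other way. The C57BL/6J allele had 1250 to 1710 count equivalents, median 1335, and the Cast/EiJ allele 1470 to 1740, median 1545. Values of the alleles overlapped across libraries, but within a library the Cast/EiJ allele was higher in 6 of 6. The allelic difference was 0.19 ± 0.05 (limma adjusted p = 0.0100) and the Cast/EiJ share of 12346 unique hits was 52.9% (51.97% to 53.73%). The call was lost without F1 CastxB6 replicate 2 (adjusted p = 0.051) and on the deposited log expression (0.067). The trans component was -0.43 ± 0.10 (limma adjusted p = 0.0079), and it was -0.42 (adjusted p = 0.0057) without the 3 libraries that stood apart.

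Gpr179 encodes an orphan receptor that anchors RGS proteins, the brakes on the G protein, next to mGluR6. It lies on chromosome 11 from 97193423 to 97213391 on the minus strand. F0 C57BL/6J libraries had 2860, 2990 and 2640 count equivalents and F0 Cast/EiJ 1660, 1710 and 1600. The groups were well apart, with Cast/EiJ lower 1.71-fold, a difference of -0.77 ± 0.07 (limma adjusted p = 5.5e-05).

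The alleles of Gpr179 in F1 were closer together than the strains. The C57BL/6J allele had 2220 to 2630 count equivalents, median 2395, and the Cast/EiJ allele 1900 to 2290, median 2010. The Cast/EiJ allele was lower in 6 of 6 libraries (5 of 6 in FPKM), although the ranges met. The allelic difference was -0.24 ± 0.04 (limma adjusted p = 1.2e-04), with 45.4% of 20539 unique hits on the Cast/EiJ allele (44.7% to 46.0%). It was not called on the deposited log expression (-0.15, adjusted p = 0.065). The trans component was -0.53 ± 0.07 (limma adjusted p = 1.0e-04), and it was -0.52 (adjusted p = 8.3e-04) without the 3 libraries that stood apart.

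Trpm1 encodes the cation channel at the end of the cascade and lies on chromosome 7 from 71298721 to 71414661 on the plus strand. F0 C57BL/6J had 4140, 5400 and 4670 count equivalents and F0 Cast/EiJ 3780, 4470 and 3940. These groups overlapped and the difference of -0.22 ± 0.11 was not called (limma adjusted p = 0.15). It was called without F0 C57BL/6J replicate 1 (-0.31, adjusted p = 0.040), with edgeR on unique hits (-0.27, 0.038) and with DESeq2 (-0.26, 0.044). Without F0 C57BL/6J replicate 2 it was smaller, at -0.12 (limma adjusted p = 0.43).

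Between alleles Trpm1 differed in every library. The C57BL/6J allele had 4530 to 5390 count equivalents, median 4930, and the Cast/EiJ allele 3610 to 4200, median 3950, with no overlap. In FPKM the Cast/EiJ allele was also lower in 6 of 6 libraries, but the ranges overlapped, at 57.5 to 70.5 for C57BL/6J and 48.5 to 62.9 for Cast/EiJ. The difference was -0.33 ± 0.06 (limma adjusted p = 2.9e-04), with 43.5% of 21610 unique hits on the Cast/EiJ allele (42.9% to 44.2%). On the deposited log expression it was -0.19 (adjusted p = 0.021). The trans component was 0.11 ± 0.11 and was not called (limma adjusted p = 0.56). Trpm1 is also expressed by melanocytes and pigment epithelium, and the pigment cell genes Tyr, Tyrp1, Dct, Mlana and Rpe65 averaged 0.063, 0.520, 0.693, 0.231 and 0.430 FPKM, against 60.2 for Trpm1. Of 6 pigment epithelium markers, 3 averaged at least 1 FPKM, Ttr at 4.54 among them. Of 7 melanocyte markers 1 did, Mitf at 1.44. Ttr had 126 to 155 count equivalents in F0 C57BL/6J and 28.3 to 51.5 in F0 Cast/EiJ, whereas Mitf overlapped between the strains. Their part in the Trpm1 values was not tested.

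**Figure D2:**
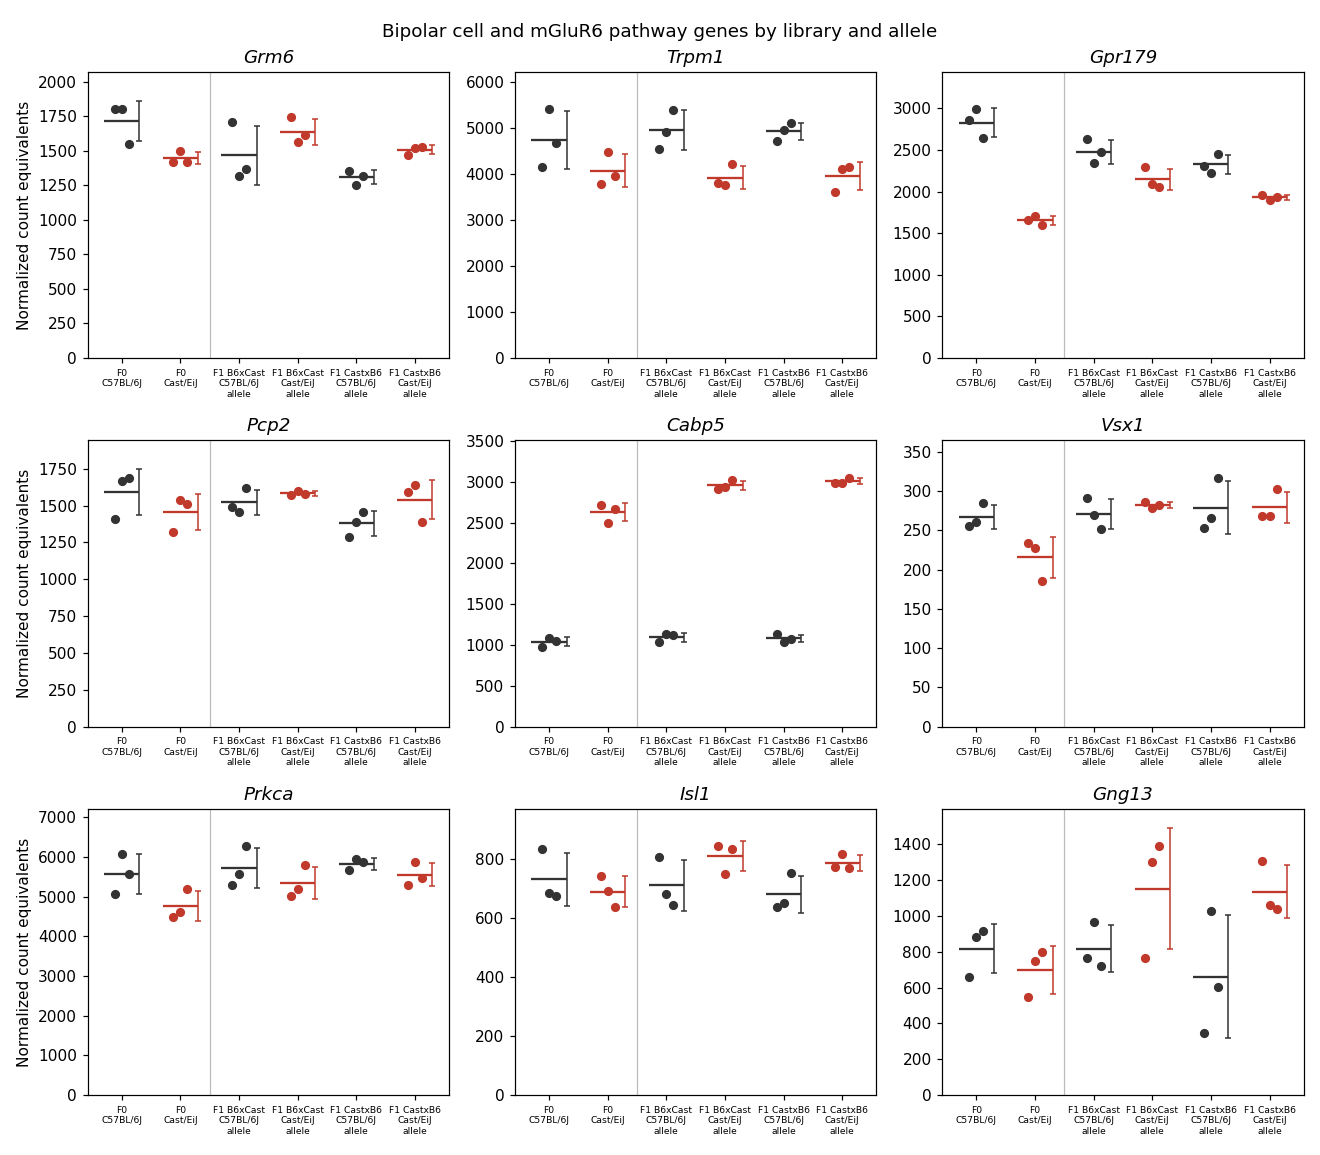
Normalized count equivalents of each gene (y axes from 0) in F0 libraries and for each allele in F1 libraries, with C57BL/6J dark and Cast/EiJ red. Points are libraries, the horizontal bar is the mean of 3 and the error bar is ± 1 SD. For Cabp5 the Cast/EiJ values of 2500 to 3050 lie above all C57BL/6J values in F0 and F1, whereas for Gpr179 the gap is wider in F0 than between the alleles.

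The other 2 genes of G protein signalling overlapped between the F0 strains. Gng13 encodes a G protein gamma subunit of ON bipolar cells, and lies on chromosome 17. F0 C57BL/6J libraries had 660, 880 and 915 count equivalents and F0 Cast/EiJ 549, 748 and 800, overlapping ranges with a difference of -0.23 ± 0.16 (limma adjusted p = 0.31). With 1 library left out it ran from -0.066 (without F0 Cast/EiJ replicate 1) to -0.379 (without F0 C57BL/6J replicate 1). In F1 the C57BL/6J allele had 348 to 1030, median 743, and the Cast/EiJ allele 767 to 1390, median 1180. The allelic difference of 0.68 ± 0.20 was called (limma adjusted p = 0.0094), but it rested on few reads. There were 139 allele-specific unique hits in all, 23.2 per F1 library against 473 per F0 library, and 70.5% of them were on the Cast/EiJ allele (62.5% to 77.5%). The posterior SD of its log expression reached 1.02 per allele, against at most 0.116 for the other 8 genes. The call was lost without F1 B6xCast replicate 3 (adjusted p = 0.057) or F1 CastxB6 replicate 1 (difference 0.43, adjusted p = 0.056), and on the deposited log expression (0.50, adjusted p = 0.17), where the Cast/EiJ allele was higher in 3 of 6 libraries. On unique hits the difference was 1.29 with edgeR (adjusted p = 0.0036) and 1.32 with DESeq2 (8.3e-05). Its trans component was -0.92 ± 0.36 and was not called (limma adjusted p = 0.11), although it was called with edgeR on unique hits (-1.51, adjusted p = 0.0063), with DESeq2 (-1.48, 0.0010) and without F1 CastxB6 replicate 2 (-1.13, 0.027).

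Pcp2 encodes a small protein that binds Go subunits, and lies on chromosome 8. It had 1410, 1670 and 1690 count equivalents in F0 C57BL/6J and 1320, 1540 and 1510 in F0 Cast/EiJ, which overlapped (-0.12 ± 0.09, limma adjusted p = 0.34). With 1 library left out this ran from -0.055 (without F0 Cast/EiJ replicate 1) to -0.209 (without F0 C57BL/6J replicate 1). The C57BL/6J allele had 1290 to 1620, median 1460, and the Cast/EiJ allele 1390 to 1640, median 1585. That difference of 0.11 ± 0.06 was not called (limma adjusted p = 0.13). On the deposited log expression it was 0.23 and called (adjusted p = 0.027), and likewise without F1 CastxB6 replicate 3 (0.16, 0.034), while 49.3% of 2256 unique hits were on the Cast/EiJ allele (47.3% to 51.4%). Its trans component was -0.23 ± 0.10 (limma adjusted p = 0.14), called without F0 C57BL/6J replicate 1 (-0.32, 0.047).

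Prkca encodes protein kinase C alpha, the usual marker of rod bipolar cells, and lies on chromosome 11. F0 C57BL/6J had 5060, 6070 and 5580 count equivalents and F0 Cast/EiJ 4490, 4620 and 5200. The groups overlapped and the difference was -0.22 ± 0.09 (limma adjusted p = 0.081). It was called without F0 C57BL/6J replicate 1 (-0.29, adjusted p = 0.032), with edgeR on unique hits (-0.23, 0.027) and with DESeq2 (-0.23, 0.034). Without F0 C57BL/6J replicate 2 it was smaller, at -0.16 (limma adjusted p = 0.26). The alleles were close, at 5300 to 6270 (median 5770) for C57BL/6J and 5020 to 5870 (median 5390) for Cast/EiJ. The Cast/EiJ allele was lower in 6 of 6 libraries, yet the difference of -0.08 ± 0.05 was not called (limma adjusted p = 0.19), with 48.2% of 40552 unique hits on it (47.7% to 48.7%).

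Prkca turned direction with the scale. In FPKM, which depends on how reads are shared among transcripts of different length, the F0 difference was 0.33 (limma adjusted p = 0.15) and the allelic difference 0.37 (adjusted p = 0.0017), both higher for Cast/EiJ. The shift between the scales was 0.55 for F0 and 0.45 for the alleles, while the median absolute shift over all genes tested was 0.018 and 0.015. The annotation holds 5 Prkca transcripts of 541 to 8409 bp. A direction for Prkca is therefore not given.

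**Figure D3:**
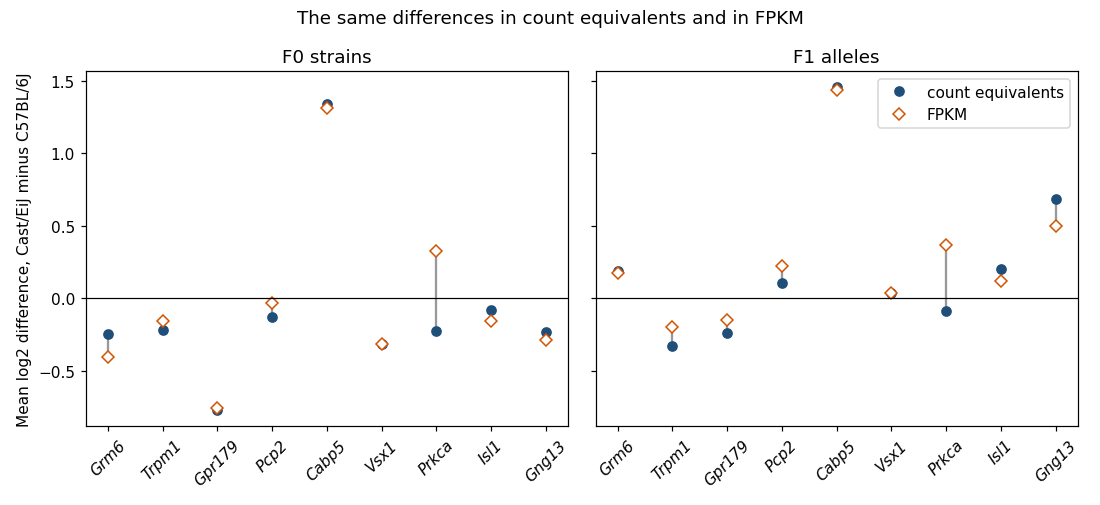
Mean log2 difference, Cast/EiJ minus C57BL/6J, for each gene in count equivalents (filled) and in FPKM (open), between the F0 strains and between the F1 alleles. Prkca is the only one of the 9 whose points lie on opposite sides of 0, at -0.22 and 0.33 in F0 and at -0.08 and 0.37 in F1.

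The last pair are transcription factors. Vsx1, a homeodomain factor of cone bipolar cells on chromosome 2, had 256, 260 and 285 count equivalents in F0 C57BL/6J and 234, 227 and 186 in F0 Cast/EiJ. The groups did not overlap, but the difference of -0.31 ± 0.12 was not called (limma adjusted p = 0.075). It was called with edgeR on unique hits (-0.33, adjusted p = 0.038) and with TMM factors added to the authors' normalization (-0.39, 0.028). Its alleles were level, with medians of 267.5 and 280 and a difference of 0.03 ± 0.07 (limma adjusted p = 0.71). The Cast/EiJ share of its 2817 unique hits was 50.02% (48.2% to 51.9%), and the trans component was -0.35 ± 0.12 (adjusted p = 0.076; with edgeR -0.39 and 0.028).

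Isl1, a LIM homeodomain factor of ON bipolar cells that amacrine and ganglion cells also use, lies on chromosome 13. It had 834, 685 and 672 count equivalents in F0 C57BL/6J and 741, 689 and 636 in F0 Cast/EiJ, with no called difference (-0.08 ± 0.10, limma adjusted p = 0.58). The Cast/EiJ allele was higher in 6 of 6 F1 libraries, at 749 to 842 (median 794.5) against 637 to 807 (median 665). This order was not the same on other scales, since the Cast/EiJ allele had more unique hits in 4 of 6 libraries and a higher FPKM in 3 of 6. That difference was 0.20 ± 0.07 (limma adjusted p = 0.019), and 52.3% of 4406 unique hits were on the Cast/EiJ allele (50.8% to 53.8%). The call was lost without F1 B6xCast replicate 3 (adjusted p = 0.10), F1 CastxB6 replicate 1 (0.069) or F1 CastxB6 replicate 2 (0.090), with DESeq2 (0.10) and on the deposited log expression (0.12, adjusted p = 0.49). The trans component was -0.28 ± 0.12 (limma adjusted p = 0.13; with edgeR -0.33 and 0.035).

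**Figure D4:**
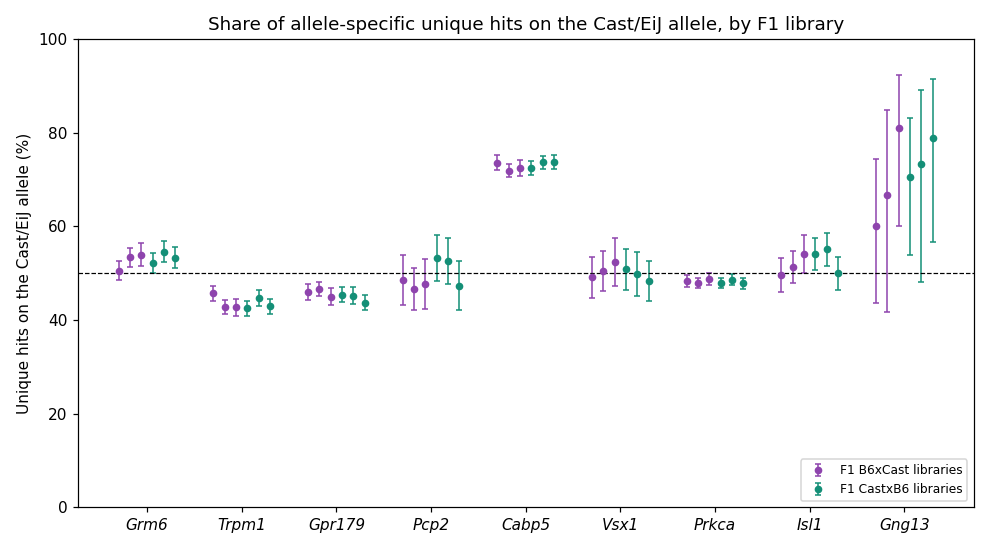
Share of allele-specific unique hits on the Cast/EiJ allele in each F1 library, in percent, with 95% Wilson intervals that cover counting error only; the dashed line is 50%. Cabp5 lies at 71.9% to 73.8% and Trpm1 at 42.5% to 45.7% in all 6 libraries, while the intervals of Gng13 are wide because it had 15 to 35 hits per library.

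Between the F0 strains, 3 of the 9 genes were called, Cabp5 higher and Gpr179 and Grm6 lower in Cast/EiJ, where 33.8% of all 14452 genes tested were called (17.2% higher and 16.6% lower). The median difference was -0.22 over the 9 genes and 0.03 over all genes. Means were lower in Cast/EiJ for 8 of 9 in count equivalents, and for 7 in FPKM, where Prkca is higher. The F0 groups did not overlap for 4 of 9 (Cabp5, Gpr179, Grm6 and Vsx1), and for 48.0% of all genes. With edgeR on unique hits, 6 of 9 were called, and without the 3 libraries that stood apart 3 were called, namely Cabp5, Gpr179 and Prkca (adjusted p = 0.0497). Over all genes these fits called 5358 and 4626, against 4887 in the main fit.

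Between the F1 alleles, 6 of 9 were called, with Cabp5, Gng13, Isl1 and Grm6 higher and Trpm1 and Gpr179 lower from the Cast/EiJ allele. Of 13414 genes tested, 47.0% were called, 23.5% in each direction. Values of the alleles did not overlap for 2 of 9 (Cabp5 and Trpm1), against 25.5% of all genes. A trans component was called for 2 of 9, Gpr179 and Grm6, both negative, where 14.0% of genes were called (5.64% positive and 8.31% negative). Without the libraries that stood apart the allelic count stayed at 6 and the trans count at 2. Over all genes 6529 and 1731 were then called, against 6305 and 1872. All 9 genes passed the filters on low values in these comparisons.

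**Figure D5:**
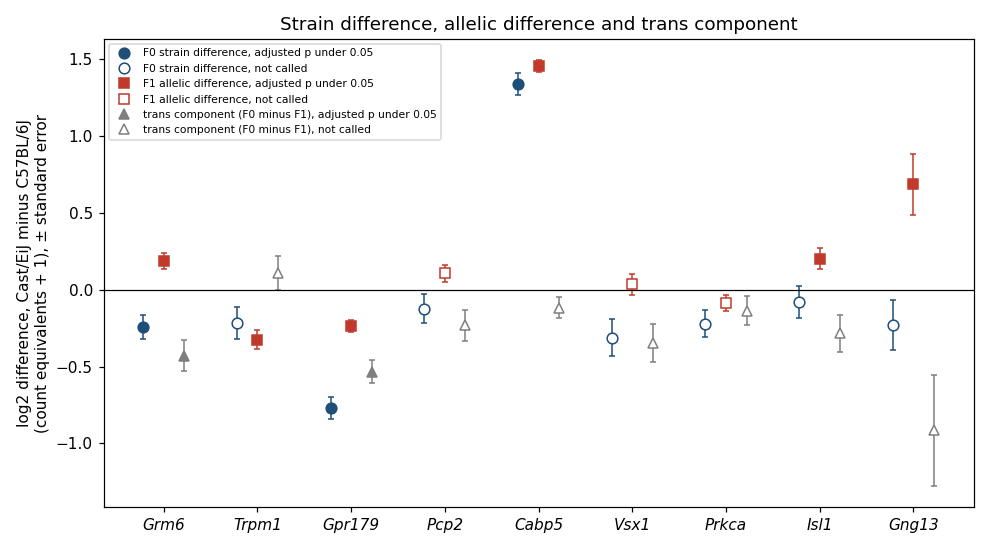
Log2 difference ± SE for the F0 strain difference (circles), the F1 allelic difference (squares) and the trans component (triangles) of each gene, filled where the limma adjusted p is under 0.05. Cabp5 has about the same value in F0 (1.34) and F1 (1.46), Gpr179 is lower in F0 (-0.77) than between alleles (-0.24), and Grm6 lies on opposite sides of 0 (-0.24 and 0.19).

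Neither the parent of origin nor the direction of the cross gave a call. The maternal minus paternal difference ranged from -0.23 (Gng13) to 0.03, and 0 of 9 genes were called by limma, edgeR or DESeq2, where limma called 0.492% of all genes (0.179% with the maternal and 0.313% with the paternal allele higher). The total of both alleles, F1 CastxB6 minus F1 B6xCast, ranged from -0.14 (Grm6) to 0.04 (Prkca), again with 0 of 9 called by any of these tools and 0.0401% of all genes called by limma. None of the 9 had an unadjusted limma p under 0.05 in either comparison.

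Other genes of the cascade were read from a list of 13, of which 12 were in the tables and 10 were tested. Of these 10, 3 were called between the strains, 4 between the alleles and 1 as trans. Over all genes tested the shares called were 33.8%, 47.0% and 14.0%. Between the F0 strains 2 were higher in Cast/EiJ, the leucine-rich repeat gene Lrit1 (5073 ± 406 and 6673 ± 347 count equivalents in C57BL/6J and Cast/EiJ, SD, n = 3; 0.40 ± 0.08, limma adjusted p = 0.0049) and the synaptic adhesion gene Elfn1 (0.25 ± 0.08, 0.042). Rgs9bp, which encodes an anchor of RGS proteins that photoreceptors use heavily, was lower (13200 ± 265 and 9600 ± 157; -0.46 ± 0.06, 6.1e-04). Between alleles Gnb3, the G protein beta subunit of ON bipolar cells and cones, and Lrit1 were higher (0.39 ± 0.07 and 0.27 ± 0.04). Gnb5, the partner of RGS7 and RGS11, and Rgs9bp were lower (-0.25 ± 0.05 and -0.15 ± 0.03). Rgs9bp also had the only called trans component of the 10, at -0.31 ± 0.05 (limma adjusted p = 8.3e-04). The medians of the 10 genes were -0.04, -0.01 and 0.06 for the strain, allelic and trans differences, against 0.03, 0.00 and 0.00 over all genes. Nyx, the leucine-rich protein nyctalopin, and Cacna1f, a calcium channel subunit of photoreceptor terminals, are on the X chromosome and were not tested. Nyx had 284 ± 44.9 count equivalents in F0 C57BL/6J and 178 ± 16.7 in F0 Cast/EiJ, and Cacna1f 6517 ± 1261 and 10753 ± 1293.

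Among 34 further bipolar cell genes, 6 were called higher and 7 lower in F0 Cast/EiJ, with a median of 0.05, where 17.2% of all genes were called higher and 16.6% lower. The largest differences among those higher were in Neto1, a subunit that accompanies kainate receptors (146 ± 18.5 and 229 ± 7.94 count equivalents; 0.65 ± 0.13, limma adjusted p = 0.0044), the transcription factor Fezf2 (0.58 ± 0.19, 0.043) and the adhesion gene Lrrtm1 (0.48 ± 0.13, 0.022). Those lower were led by Car8, a carbonic anhydrase-related protein (673 ± 27.3 and 307 ± 55.9; -1.15 ± 0.13, 2.3e-04), the synaptotagmin gene Syt2 (-0.82 ± 0.10, 2.8e-04) and the tachykinin receptor gene Tacr3 (-0.68 ± 0.12, 0.0030). Between alleles, 33 were tested, 6 were called higher and 13 lower from Cast/EiJ, with a median of -0.13, where 23.5% of all genes were called in each direction. Neto1 (0.73 ± 0.08), the calcium-binding protein gene Scgn (0.31 ± 0.04) and Lrrtm1 (0.26 ± 0.07) were highest. The exchanger gene Slc24a3 (-0.74 ± 0.05), Car8 (-0.66 ± 0.07) and Fezf2 (-0.61 ± 0.17) were lowest.

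The gene outside these lists whose level followed each of the 9 most closely over the 12 libraries was found by Pearson's r among 10153 genes. For Cabp5 it was Gm14150 (r = 0.996), for Gpr179 Mknk1 (0.980), for Grm6 Reep2 (0.942) and for Trpm1 Syne2 (0.917). For Gng13 it was Hecw1 (0.958), for Prkca Nudt19 (0.957), for Isl1 Msi2 (0.956), for Vsx1 Fam43a (0.940) and for Pcp2 Utp14b (0.918). These values describe 12 libraries of 4 classes, which the points share, and each is the highest of many.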

How the data were processed

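The authors trimmed reads with Trim Galore 0.2.6, aligned them with Bowtie 0.12.9 to the transcriptome of each strain for F0, and of both strains for F1, on NCBI37, and estimated expression with MMSEQ. Deposited signal values are count equivalents, normalized by the authors and not whole numbers; they are scaled alike for F0 libraries and F1 alleles. The natural log of expression was deposited by the authors, and its exponential was taken as FPKM. Its posterior SD was deposited as a score of uncertainty, and unique hits are the authors' raw read counts. From the authors' table of model probabilities only the flag for genes without a polymorphism was read, and 36 columns were not used. The RNA-seq was not strand-specific, so reads of overlapping antisense genes cannot be told apart.

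Limma 3.58.1 (R 4.3.3) was run on log2(count equivalents + 1), with trend. The F0 comparison kept each autosomal gene that reached 10 count equivalents in 3 or more of the 6 libraries. Alleles, trans component and parent of origin came from 1 model of F0 and F1 with the F1 library as a random block (consensus correlation 0.135), for autosomal genes with a polymorphism that averaged 10 or more unique hits over both alleles per F1 library. Totals were compared between F1 crosses. EdgeR 4.0.16, DESeq2 1.42.0, TMM, other pseudocounts, filters and left-out libraries were the alternatives. Leaving out 3 libraries together was chosen after seeing the data. The replicates were separate pools. Each limma comparison, and edgeR for the strains and the alleles, was tested on simulated data. The 9 genes and all lists were chosen with earlier results of these data known. Named from the lists were called cascade genes, the 3 largest called differences in each direction among bipolar genes, pigment genes (Ttr and Mitf were added after their values were seen), the closest gene by r, and genes behind counts of 5 or fewer.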

Additional observations from a re-analysis of the deposited data

Results flagged for a closer look

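For 2 genes the difference between the F0 strains and the difference between the F1 alleles departed from each other by a test of the difference itself. Grm6 was lower in F0 Cast/EiJ and higher from the Cast/EiJ allele in F1, a departure of -0.43 on the log2 scale (limma adjusted p = 0.0079). Gpr179 was lower in both, by more between the strains, a departure of -0.53 (limma adjusted p = 1.0e-04). Both stayed called in every fit that left out 1 library.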

How the results depend on the processing

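The sample labels number the replicates but state no pairing, so the main fits used none, and the correlations did not settle it. Deviations of same-numbered F0 libraries correlated at 0.326, 0.030 and 0.137, those of F1 libraries at -0.103, -0.118 and -0.056, and F0 C57BL/6J replicate 2 was closest to F0 Cast/EiJ replicate 3 (0.173). The value of 0.326, between the replicates 1, was the highest between F0 libraries, and both of these libraries stood apart from their groups. With a replicate block, 6 of the 9 genes were called between F0 strains instead of 3, with Trpm1 (-0.22, adjusted p = 0.0090), Gng13 (-0.23, 0.017) and Prkca (-0.22, 0.020) added. These genes, and Pcp2, were lower in F0 Cast/EiJ at each replicate number. Over all genes the block raised the calls from 4887 to 6376.

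EdgeR on unique hits called 6 of 9 in F0 and 5 of 9 as trans, against 3 and 2. Over all genes it called 5358 against 4887 in F0, and 2255 against 1872 as trans. The cause was not tested. Without the filter on low values, which tests more genes, 3161 instead of 4887 genes were called in F0, 8 instead of 16 list genes in F0, 5 instead of 8 list genes as trans, and 24 instead of 6 genes between crosses. Parent-of-origin calls were 66, and 40 with edgeR, 39 with DESeq2 and 38 at a mean of at least 50. DESeq2 called 12 genes between crosses, and 12 were called without the 3 libraries that stood apart. With 1 library left out, calls among the 9 genes ranged from 2 to 4 (F0), 4 to 7 (alleles) and 2 to 3 (trans). Over all genes they ranged from 3498 to 4573, 5487 to 6374 and 1460 to 2032. List genes called as trans ranged from 5 (without F0 Cast/EiJ replicate 1) to 10, and genes called between crosses from 5 to 12 (without F1 B6xCast replicate 1).

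Values that changed sign were those of Prkca on the deposited log expression (F0 0.33, alleles 0.37), Pcp2 alleles with edgeR (-0.0033) and DESeq2 (-0.0076), and Isl1 in F0 without F0 C57BL/6J replicate 1 (0.019, the lowest with 1 library left out being -0.14 without F0 C57BL/6J replicate 3). With 3 libraries per class, small differences lie within the spread, and Gng13 alleles rest on 139 hits.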

Other observations

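Among the 33 further bipolar cell genes tested, 3 had a positive and 4 a negative called trans component, named after their values were seen. Of all genes tested, 5.64% were called positive and 8.31% negative. Slc24a3 had 2090 ± 79.4 and 2323 ± 107 count equivalents in F0 C57BL/6J and F0 Cast/EiJ (SD, n = 3), but 2635 ± 174 and 1582 ± 87.0 from the C57BL/6J and the Cast/EiJ allele in F1 (n = 6), a trans component of 0.89 ± 0.08 (limma adjusted p = 1.6e-06). Grik1, a kainate receptor subunit of OFF bipolar cells, was higher in F0 Cast/EiJ (0.36) and lower from the Cast/EiJ allele (-0.27), with a trans component of 0.64 ± 0.07 (adjusted p = 2.0e-05), and Fezf2 likewise (1.19 ± 0.30, 0.014). Syt2 differed between the strains but not detectably between the alleles (0.03 ± 0.05), with a trans component of -0.85 ± 0.10 (1.7e-05). Car8 (-0.49 ± 0.13), Gabrr2 (-0.31 ± 0.08) and Otx2 (-0.24 ± 0.08) were the other 3.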
